A study of Mus musculus with 12 samples.

Results

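FRA-1 binding was compared between macrophages stimulated with lipopolysaccharide (LPS) and macrophages given apoptotic cells, by chromatin immunoprecipitation followed by sequencing (ChIP-seq). A peak is a stretch of DNA at which fragments bound by FRA-1 were called as enriched in 1 replicate. Peaks of the 3 LPS and the 3 apoptotic cell replicates that touched or overlapped were merged, which gave 245198 regions of the 300608 that result when the 3 unstimulated replicates are merged in as well. Each region was then described by its replicate support, the number of LPS and of apoptotic cell replicates with a peak in it. The macrophages came from the peritoneum of male or female mice aged 8 weeks, on a 129/C57Bl6 background by the sample records and C57Bl/6 by the design text. The sample records describe cells elicited with thioglycollate and harvested after 72 h, whereas the design text gives a lavage with no elicitation. Stimulation lasted 1 h and used LPS, at 1 µg/ml by the sample records and 10 µg/ml by the design text, or apoptotic cells at a 1:5 ratio. The sample records name the same 3 mice in every condition, the design text gives separate mice per condition, and the score columns name no mouse, so that replicates are numbered here by column and p-values measure only the spread between these samples. The tables list binding and not expression, so the label macrophage could not be checked against marker genes.

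FRA-1, the product of Fosl1, is a FOS family member of the AP-1 transcription factors. It has no transactivation domain of the c-Fos type, binds DNA as a heterodimer with a JUN protein, and recognises the palindrome TGANTCA, best known as TGACTCA or its reverse complement TGAGTCA. LPS signals through TLR4 to NF-kB and the MAP kinases, which raise AP-1 activity and inflammatory cytokines, while the uptake of apoptotic cells (efferocytosis) uses phosphatidylserine receptors, actin remodelling and lipid handling and is known to dampen inflammatory output.

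The LPS replicates had 46007, 39728 and 63010 peaks and the apoptotic cell replicates 40821, 31501 and 79474. The means were 49582 ± 12046 and 50599 ± 25437 (SD, n = 3 each), and the groups overlapped (exact permutation test, two-sided, p = 0.9, where 0.1 is the smallest p that 3 against 3 allow). The deposited score, for which higher values were taken as stronger calls, ran from 50.01 to about 3100, and its median per replicate was 148 ± 28.7 with LPS and 123.3 ± 14.7 with apoptotic cells (exact permutation p = 0.3). The narrowest peak of a replicate measured 104 to 108 bp in LPS replicates 1 and 3 and apoptotic cell replicate 3, and 158 to 168 bp in the other 3, which are called the narrow and the wide class. The tables carry no read counts, so that sequencing depth is unknown and a missing peak cannot be told from a shallow library.

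Promoter sequences show what the regions look like at gene starts. They are RefSeq sequences of GRCm38.p6, cut to the bases that lie both upstream of the annotated start and within a merged region, with any TGANTCA in capitals. Runx3 (a RUNX family transcription factor), Jph3 (junctophilin 3) and Cwc15 (a spliceosome component) were picked among genes whose starts were covered by a region with a peak in all 6 replicates. Others that met this rule, such as Nova1, Mup18 and AW549877, are not shown. Gm39853, a predicted gene, was chosen because, among the windows with at least 2 replicates of a condition, its region alone held TGACTCA or TGAGTCA.
Runx3, chr4:135120522-135120644, plus strand: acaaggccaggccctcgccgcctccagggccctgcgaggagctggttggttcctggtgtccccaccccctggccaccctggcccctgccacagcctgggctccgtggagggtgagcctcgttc
Jph3, chr8:121730484-121730558, plus strand: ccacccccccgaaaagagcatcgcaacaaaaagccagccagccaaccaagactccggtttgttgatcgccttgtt
Cwc15, chr9:14500518-14500618, plus strand: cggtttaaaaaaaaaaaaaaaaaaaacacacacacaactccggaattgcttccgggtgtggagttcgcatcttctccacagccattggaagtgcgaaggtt
Gm39853, chr2:75613221-75613332, plus strand: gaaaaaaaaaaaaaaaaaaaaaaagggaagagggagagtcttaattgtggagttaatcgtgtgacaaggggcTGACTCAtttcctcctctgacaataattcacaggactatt
The Runx3 region scored 337.71, 166.55 and 201.75 in the LPS replicates and 116.66, 133.78 and 172.39 in the apoptotic cell replicates, so that the groups overlapped at its edge. The Gm39853 region scored 136.64 and 265.27 in LPS replicates 1 and 3 and had no peak in LPS replicate 2 or in any apoptotic cell replicate. Both Cwc15 and Gm39853 carry a long run of A, a feature that is counted over all promoter windows further on.

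Most regions belonged to 1 replicate of 1 condition. Of the 245198 regions, 95785 had a peak in a single LPS replicate and no apoptotic cell replicate, and 122191 a peak in a single apoptotic cell replicate and no LPS replicate. Any LPS peak was present in 122176 regions, any apoptotic cell peak in 139261, and peaks of both conditions in 16239, which is 13.3% of the former and 11.7% of the latter. A peak in all 6 replicates was present in 2783 regions, or 1.14%. These made up 63.6% of the 4374 regions with all 3 LPS replicates and 66.2% of the 4201 regions with all 3 apoptotic cell replicates.

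**Figure D1:**
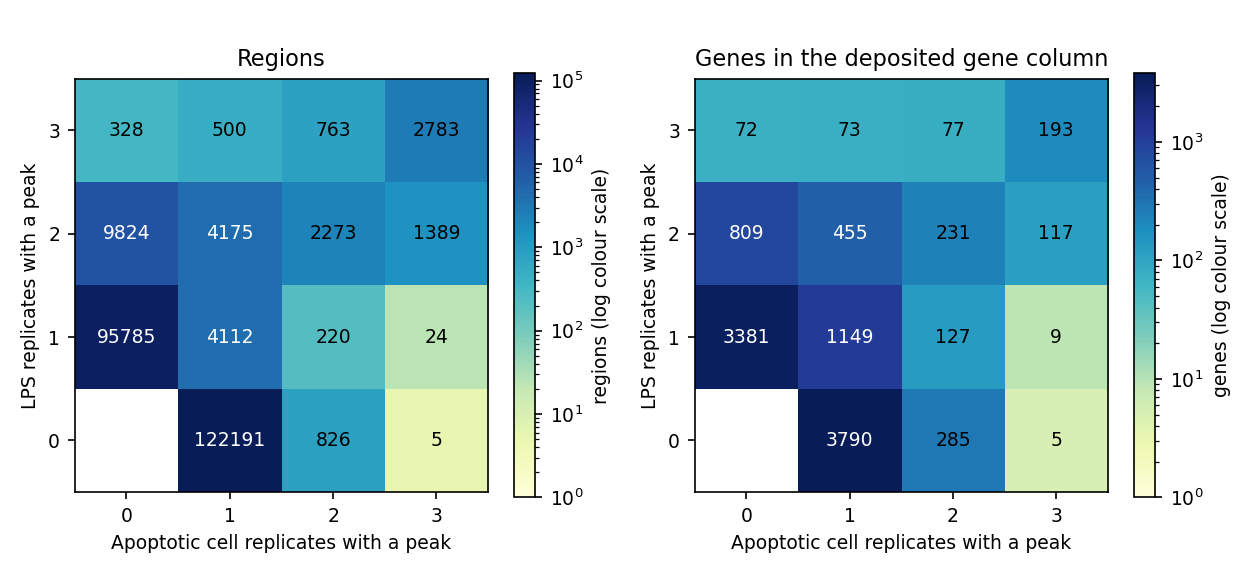
Number of regions (left) and of genes in the deposited gene column (right) by the number of apoptotic cell replicates (x axis) and LPS replicates (y axis) with a peak, on a log colour scale. The corner with all 3 LPS and no apoptotic cell replicate holds 328 regions and 72 genes, and the opposite corner 5 regions and 5 genes.

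One-sided regions with full replicate support lay mostly on the LPS side. A peak in all 3 LPS and no apoptotic cell replicate was listed in 328 regions (0.134% of all regions), against 5 regions (0.00204%) with a peak in all 3 apoptotic cell and no LPS replicate. With at least 2 replicates of 1 condition and none of the other, 10152 regions (4.14%) were on the LPS side and 831 (0.339%) on the apoptotic cell side. No single region could be tested, since 3 replicates against 3 allow no p below 0.1. The same number of top-scoring peaks from each replicate, 31501, gave 214 and 4 regions with 3 against 0 replicates.

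This asymmetry rested on LPS replicates 1 and 3. Of the 10152 regions on the LPS side, 9148 had their peaks in exactly this pair, 496 in replicates 2 and 3, 180 in replicates 1 and 2, and 328 in all 3. On the apoptotic cell side the pairs were more even, with 382 regions in replicates 1 and 3, 307 in replicates 2 and 3, 137 in replicates 1 and 2, and 5 in all 3. With LPS replicate 2 left out, 9477 regions had both remaining LPS replicates and no apoptotic cell replicate. With LPS replicate 1 or 3 left out, 823 and 506 regions did. The apoptotic cell side gave 312, 386 and 140 regions when its replicates 1, 2 and 3 were left out in turn, which is still fewer than any of the LPS values.

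Pairs of replicates showed the same structure. LPS replicates 1 and 3 shared 24.2% of the regions in which either had a peak, whereas the other LPS pairs shared 5.63% and 5.10%. The apoptotic cell pairs shared 8.34%, 5.16% and 4.94%. Pairs that crossed the conditions shared between 3.39% and 11.3%, the highest of them LPS replicate 1 with apoptotic cell replicate 1. The mean over pairs within a condition was 8.90% and between conditions 7.55%, a difference of 1.35 percentage points (exact permutation of the condition labels over the 6 replicates, p = 0.9). Without LPS replicate 1 the difference turned to -0.75 and without LPS replicate 3 to -0.97 percentage points. Replicates of 1 condition were therefore not detectably more alike than replicates of different conditions.

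**Figure D2:**
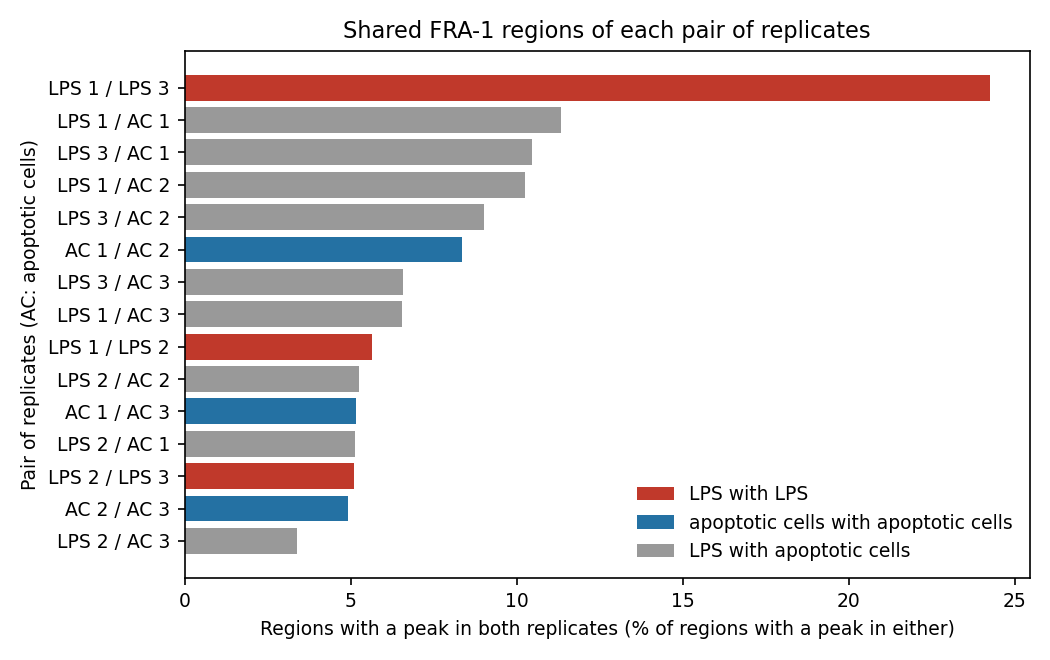
Share of regions with a peak in both replicates of a pair, in percent of the regions with a peak in either (x axis), for the 15 pairs of replicates (y axis), coloured by condition. LPS replicates 1 and 3 stand apart at 24.2%, and the other 14 pairs lie between 3.39% and 11.3%.

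Regions found in several replicates after apoptotic cells were mostly found after LPS too. At least 2 apoptotic cell replicates had a peak in 8283 regions, and 7208 of these also had at least 2 LPS replicates, or 87.0% (95% Wilson interval 86.3 to 87.7%, counting error only). The reverse share was 7208 of 22035, or 32.7% (95% Wilson interval 32.1 to 33.3%). This order held for LPS replicates 1 and 3, which had a peak in 86.9% and 89.4% of the 8283 regions, but LPS replicate 2 had a peak in 43.4%. The apoptotic cell replicates had a peak in 39.5%, 32.3% and 33.8% of the 22035 regions. Without LPS replicate 1, the share of apoptotic cell regions found with LPS was 43.1% and the reverse share 71.7%, and without LPS replicate 3 they were 42.9% and 77.7%, so that the order of both shares turned around.

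Unstimulated macrophages divided the classes further. Of the 2783 regions common to all 6 replicates, 97.2% overlapped a peak of at least 1 unstimulated replicate. Of the 328 regions with all LPS and no apoptotic cell replicate, 39.0% did, and 108 of these overlapped a peak of unstimulated replicate 3, against 19 and 20 for unstimulated replicates 1 and 2. Of the 831 regions with at least 2 apoptotic cell and no LPS replicate, 2.29% overlapped an unstimulated peak, against 1.22% of regions with a single apoptotic cell peak. The regions with at least 2 LPS and no apoptotic cell replicate stood at 16.6%, against 2.06% of regions with a single LPS peak. Widths differed as well, with a median of 117 bp for the 10152 regions on the LPS side and 326 bp for the 831 on the apoptotic cell side, and 186 bp over all regions.

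Among regions present in all 6 replicates, no score difference between the conditions passed the test. The median score in these 2783 regions was 337.71, 166.55 and 378.83 in the LPS replicates and 246.73, 218.24 and 213.17 in the apoptotic cell replicates, and the groups overlapped because of LPS replicate 2 (exact permutation p = 0.4). With log2 scores centred on each replicate's median, 0 regions (0% of 2783) had a limma adjusted p under 0.05, and the smallest adjusted p was 0.546. At an unadjusted p under 0.05 there were 147 regions, or 5.28%. Differences ran from -1.29 to 1.66 on the log2 scale, and 99.4% of regions lay within 1 log2 unit of 0. In simulated data of the same size, the same test recovered 72 of 200 regions changed 2-fold and 185 of 200 changed 4-fold. The simulated noise was normal and independent between regions and replicates, so that these rates need not hold for the real scores.

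The regions with the smallest p-values are given by their nearest annotated start. Starts were known only for genes with a promoter window, which some genes lack, so that a nearer start can be missing here and below. A region at chr1:137338519-137339204 scored 244.98, 207.88 and 668.43 with LPS and 88.22, 94.43 and 69.37 with apoptotic cells, a difference of 1.66 ± 0.32 (SE) on the log2 scale (limma adjusted p = 0.546). All LPS values lay above all apoptotic cell values there, and the nearest start, that of the predicted gene Gm34244, was at a distance of -14692 bp (negative values lie upstream). A region -20177 bp from Lef1, a transcription factor of the WNT pathway, scored 434.44, 229.08 and 645.87 against 190.65, 154.25 and 128.9 (difference 1.06, limma adjusted p = 0.815). In the other direction, a region at chrX:7895233-7895533, assigned to Timm17b, a subunit of the mitochondrial import machinery, scored 264.5, 250.6 and 205.98 with LPS and 463.45, 475.76 and 388.84 with apoptotic cells (difference -1.18, limma adjusted p = 0.815). The groups did not overlap at either region. A region 11506 bp from the start of Calml4, which encodes a calmodulin-like protein, scored 262.52, 140.97 and 210.14 against 392.02, 355.06 and 243.98 (difference -1.01, limma adjusted p = 0.815), where LPS replicate 1 exceeded apoptotic cell replicate 3.

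**Figure D3:**
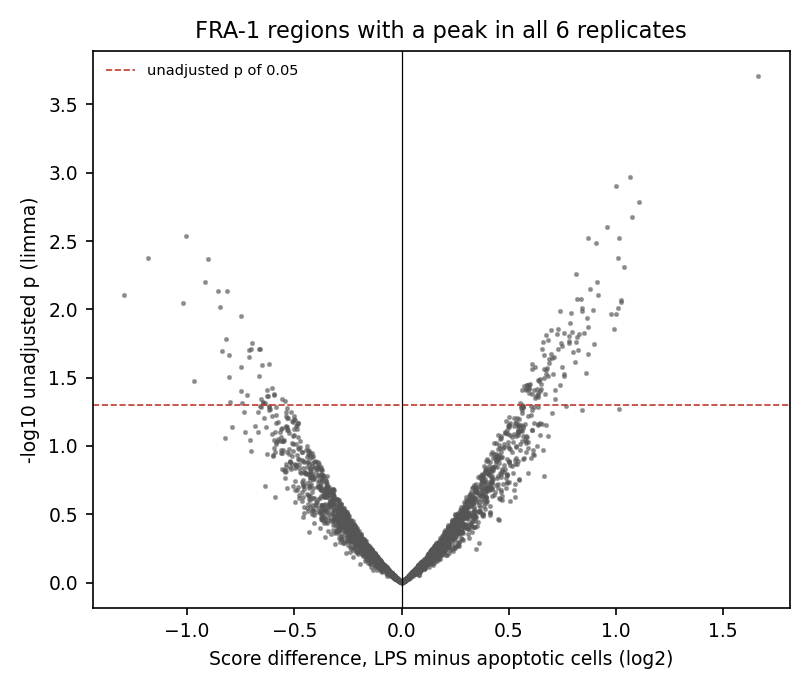
Difference in log2 score between LPS and apoptotic cells (x axis, median-centred replicates) against the -log10 unadjusted p of limma (y axis) for the 2783 regions listed in all 6 replicates; the dashed line marks an unadjusted p of 0.05. Values run from -1.29 to 1.66, and no region passed after adjustment.

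Shared regions were ranked by the lowest percentile among their 6 replicates, so that those at the top are high in both conditions by choice. The 5 highest-ranking regions scored between 3087.85 and 3188.85 in every replicate, at or near the top of the scale, where a difference could not show, were also listed in all 3 unstimulated replicates, and had no gene in the deposited gene column. The widest of them spanned chr9:2999890-3038473. Among shared regions with an assigned gene, the highest-ranking lay at chr3:89216541-89216723 and was assigned to Mtx1, an import protein of the outer mitochondrial membrane. It scored 533.64, 361.75 and 576.46 with LPS and 486.91, 402.1 and 453.71 with apoptotic cells. The region assigned to Ak4 (adenylate kinase 4), -2880 bp from its start, scored 484.05, 362.33 and 601.12 with LPS and 415.63, 426.86 and 304.08 with apoptotic cells. The next in rank were assigned to Zfp184 (a zinc finger gene), Morc3 (a nuclear ATPase), Olfr1082 (an olfactory receptor), Rab11b (a recycling endosome GTPase), Fam193b, the microRNA pair Mir449a and Mir449b, Cwc22 (a splicing factor) and Cdh16 (a cadherin). Their 6 scores overlapped between the conditions in each case, and all but Cwc22 (2 of 3) had a peak in all 3 unstimulated replicates.

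The regions with a peak in all 3 LPS and no apoptotic cell replicate had lower scores. The highest-ranking, at chr17:85499042-85499216, scored 244.98, 250.6 and 344.84 and lay 119267 bp from the nearest start, that of Six3os1. Of the 328 regions, 29 (8.84%) had an assigned gene, against 5.52% of all regions. The highest-ranking, at chr2:131285322-131285808, was assigned to Mir103-2 and scored 222.56, 169.06 and 226.93. The region assigned to Frzb, a secreted WNT antagonist, lay -4165 bp from its start and scored 136.64, 166.55 and 448.8. The region assigned to Slc39a2, a zinc importer, lay closest to a known start among the 10 highest-ranking, at -487.5 bp, and scored 200.47, 126.89 and 385.88. The others of the 10 were assigned to Pabpc4l, Gm10662 and Gm5891, Mettl5 (a ribosomal RNA methyltransferase), 2310005E17Rik, D930016D06Rik, Cbfa2t2 (a transcriptional corepressor) and Gdap1, and LPS replicate 2 had the lowest score in each except Pabpc4l, with 136.64, 187.03 and 203.67. At Pabpc4l, apoptotic cell replicate 2 had an assigned peak (240.31) at another position. Frzb also had an assigned apoptotic cell peak at another position. By the deposited gene column, neither gene therefore had all 3 LPS and no apoptotic cell replicate.

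The 5 regions with a peak in all 3 apoptotic cell and no LPS replicate had no assigned gene. The highest-ranking, at chr7:63305925-63306346, scored 149.46, 184.27 and 84.39, and its nearest start was that of Chrna7, a nicotinic acetylcholine receptor subunit, at -93610 bp. The others scored 113.77, 92.84 and 87.55 (nearest start Marchf1, a ubiquitin ligase), 72.63, 121.84 and 84.26 (Gm32729), 211.84, 75.71 and 61.74 (Gm13470), and 126.15, 106.05 and 57.6 (Lgals7, a galectin). In each of the 5 the peak of apoptotic cell replicate 3 stood under its replicate's median score of 106.48. The region near Gm32729 was also listed in all 3 unstimulated replicates, and the other 4 in none.

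By the deposited gene column, 10773 genes had an assigned peak in at least 1 of the 6 replicates. Where a gene has a single RefSeq start, 74.7% of the assigned segments lay upstream of it, 71.4% within 5000 bp upstream. An LPS peak was assigned to 6693 genes, an apoptotic cell peak to 6511, and both to 2431. All 3 LPS and no apoptotic cell replicate gave 72 genes (0.668%), and the reverse gave 5 genes (0.0464%). All 6 replicates gave 193 genes (1.79%). With RefSeq gene bodies and 5000 bp on each side in place of the deposited column, the 3 against 0 counts were 205 and 116 protein-coding genes, a smaller imbalance.

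A gene can gather its replicates from different positions, and this separated the directions. Of the 72 genes on the LPS side, 28 had all 3 replicates in 1 region, 42 had at most 2 of them in 1 region, and 2 had a separate region for each replicate. The 5 genes on the apoptotic cell side were Atp6v1c1 (a subunit of the vacuolar proton pump), Efnb2 (ephrin B2), Nt5c3 (a nucleotidase), BC021614 and Mir7094-1, and in all 5 each replicate had its own region. At Efnb2, for instance, apoptotic cell replicate 1 scored 149.46 at chr8:8663583-8663770, replicate 2 scored 113.81 at chr8:8661147-8661354 and replicate 3 scored 68.39 at chr8:8664895-8665090. No gene thus had a peak at 1 position in all 3 apoptotic cell replicates and no assigned peak with LPS.

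Fosl2, which encodes FRA-2, the closest relative of FRA-1, was the only AP-1 gene with 3 against 0 replicates. Its region lay at chr5:32135179-32135653, -1056 bp from the start of the gene (chr5:32136472-32157840), and scored 136.64, 63.81 and 123.61 in the LPS replicates. No apoptotic cell and no unstimulated replicate had a peak there. Inside the gene lay 4 further regions, each in a single replicate, with 89.28 in LPS replicate 2, 175.18 in apoptotic cell replicate 2, and 71.45 and 69.46 in apoptotic cell replicate 3, so that Fosl2 was one-sided only near its start. Trim8, a ubiquitin ligase that acts on cytokine and NF-kB signalling and was named after its values were seen, had a region at chr19:46498914-46499501 with scores of 127.75, 112.72 and 199.74 and 2 more regions, 1 with LPS replicates 1 and 3 and 1 with LPS replicate 3 alone. Asl, argininosuccinate lyase of arginine synthesis, also had 3 against 0 replicates, but from different positions. LPS replicates 1 and 3 scored 178.46 and 226.47 at chr5:130028784-130028896 and LPS replicate 2 scored 229.08 at chr5:130028255-130028445. These positions lie beside the gene (chr5:130011258-130024381) and are assigned to its neighbour Crcp as well.

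Of the other AP-1 genes, Junb was on the shared side. JUNB is a dimer partner of FRA-1. The region at chr8:84983274-84983444, -4611 bp from the Junb start, scored 314.12 and 448.8 in LPS replicates 1 and 3 and 211.84, 175.18 and 242.95 in the apoptotic cell replicates, and LPS replicate 2 had no peak. Of the 14 genes of AP-1 and partner factors, 8 (57.1%) had any assigned peak, against 39.8% of all protein-coding genes. Fosl1 itself had an assigned peak in apoptotic cell replicate 3 alone, with a score of 87.92, a region inside the gene (chr19:5453610-5453774) with scores of 136.35 in LPS replicate 3 and 128.9 in apoptotic cell replicate 3, and a flanking region in apoptotic cell replicate 3 alone (193). None of the 3 regions was found in a second replicate of a condition.

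**Figure D4:**
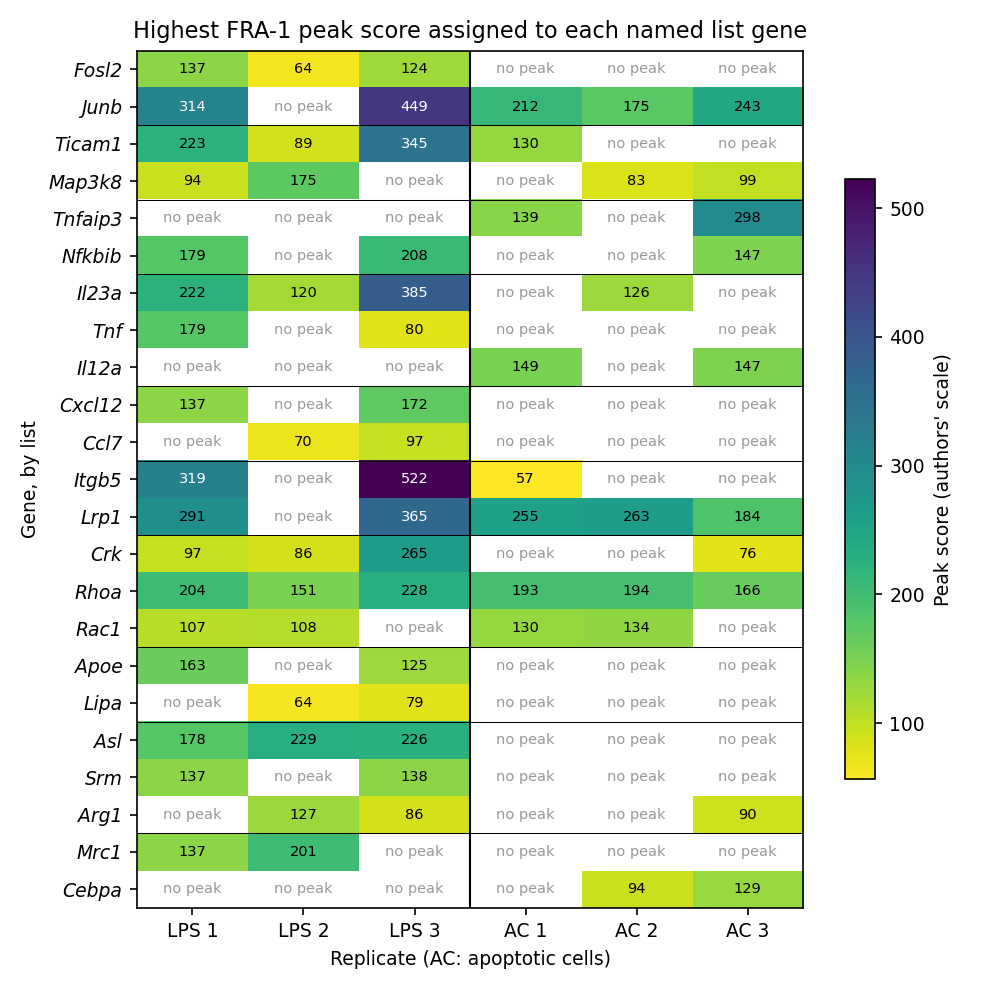
Highest score of any peak assigned by the deposited gene column to each list gene that had peaks in 2 or more replicates of 1 condition, at most 4 genes per list (rows, separated by list) in the 6 replicates (columns). Fosl2 and Asl have a peak in all 3 LPS and no apoptotic cell replicate, and Rhoa has a peak in all 6.

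Of 16 genes of LPS sensing and TLR signalling, 10 (62.5%) had an assigned peak in any of the 6 replicates, and of 13 genes of NF-kB subunits and feedback 9 (69.2%), against 39.8% of all protein-coding genes. Those with more than 1 replicate of a condition were Ticam1, Map3k8, Nfkbib and Tnfaip3. Ticam1, which encodes the TLR adaptor TRIF, had a region at chr17:56275672-56275842, 1010 bp downstream of its start, with scores of 222.56, 89.28 and 344.84 with LPS and 129.52 in apoptotic cell replicate 1. Map3k8, the kinase TPL2, had 2 replicates of each condition, but no region inside or within 5000 bp of it had 2 replicates of either. In the NF-kB list, Nfkbib (an NF-kB inhibitor) had 2 LPS and 1 apoptotic cell replicate. Tnfaip3, which encodes the NF-kB feedback inhibitor A20, had no LPS replicate and scored 139.46 and 297.89 in apoptotic cell replicates 1 and 3. No region inside or within 5000 bp of a gene of this list had at least 2 apoptotic cell and no LPS replicates, so that the Tnfaip3 peaks shared none within that distance.

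Of the 17 inflammatory cytokine genes, 8 (47.1%) had an assigned peak, against 39.8% of all protein-coding genes. Il23a, the p19 subunit of IL-23, had a region at chr10:128301513-128301684 with scores of 210.34, 119.58 and 285.36 with LPS and 125.66 in apoptotic cell replicate 2. A second Il23a region, at chr10:128298382-128298493, was listed in LPS replicates 1 and 3 (222.19 and 385.18) and in no apoptotic cell replicate, but in 2 unstimulated replicates. Tnf, the archetypal cytokine of the LPS response, scored 178.77 and 79.88 in the same pair at chr17:35205750-35206011, -3874 bp from its start, and had single apoptotic cell peaks at other positions (129.52 in replicate 1 and 68.39 in replicate 3). Il12a, the p35 subunit of IL-12, had the reverse pattern, with 149.46 and 146.98 in apoptotic cell replicates 1 and 3 and no assigned LPS peak. Its peaks likewise shared no region inside or within 5000 bp of the gene.

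The genes that the study followed in endotoxin tolerance were Il6, Il12b, Mmp13, Saa3 and Lcn2. Il6 had no peak in the deposited gene column, but 3 regions lay inside it or within 5000 bp. The one at chr5:30014196-30014365, 1167 bp downstream of its start, scored 167.63 and 246.44 in LPS replicates 1 and 3 and 84.61 in apoptotic cell replicate 1. The one beyond its end, at chr5:30023135-30023385, scored 115.26 and 111.06 in the same LPS pair and had no apoptotic cell peak, and the third held 1 peak of apoptotic cell replicate 1 (77.26). Il12b had a single peak (214.6 in LPS replicate 2). Lcn2, which encodes lipocalin-2, had 1 region in LPS replicate 1 (68.85) and another in apoptotic cell replicate 3 (80.54). Both lay beyond the end of the gene, 4419.5 and 4687 bp downstream of its start. Mmp13 and Saa3 had no region of either condition. None of these genes separated the conditions beyond the spread between replicates. From its own peak calls on these data and from ChIP-qPCR, the paper reported FRA-1 at the Il6 and Lcn2 promoters, especially after LPS. Its window upstream of each start lay within the 5000 bp searched here. No LPS or apoptotic cell region was listed upstream of the Il6 or the Lcn2 start within that distance. In the deposited gene column, Lcn2 had a peak in 1 unstimulated replicate only. The paper called its peaks anew from the raw reads, and the reason for the difference was not tested.

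Of 19 chemokine genes, 8 (42.1%) had an assigned peak, and 2 of these 8 had at least 2 LPS and no apoptotic cell replicate, against 8.18% of all genes with an assigned peak. Cxcl12, the ligand of CXCR4, scored 136.64 and 171.56 in LPS replicates 1 and 3 at chr6:117166867-117166977, and a second region 1449 bp downstream of its start had 2 replicates of each condition. Ccl7, a monocyte chemoattractant, scored 70.09 and 97.19 in LPS replicates 2 and 3, with each replicate at its own position. Of the 10 MAP kinase phosphatase genes, 1 had an assigned peak, against 39.8% of all protein-coding genes, and 0 held an LPS-side, a shared or an apoptotic cell-side region with at least 2 replicates, against 18.6%, 13.9% and 1.89%.

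Of the 22 genes of apoptotic cell recognition, 4 (Stab2, Itgb5, Pros1 and Lrp1) held an LPS-side region with at least 2 replicates (18.2%, against 18.6% of all protein-coding genes), 2 (Pros1 and Lrp1) a shared one (9.09%, against 13.9%) and 0 an apoptotic cell-side one (against 1.89%). These counts are near the shares over all genes. Lrp1, a receptor for apoptotic cells and lipoproteins, had a region at chr10:127622650-127622819, -1587 bp from its start, with scores of 290.79 and 365.26 in LPS replicates 1 and 3 and 255.22, 262.7 and 184.35 in the apoptotic cell replicates. Itgb5, the beta 5 integrin that binds apoptotic cells through MFG-E8, scored 318.72 and 522.34 in LPS replicates 1 and 3 and 56.53 in apoptotic cell replicate 1.

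Among the lists, engulfment and actin genes had the highest share of genes with an LPS-side or a shared region. Lipid handling genes had the highest with an apoptotic cell-side one (2 of 19, 10.5%), but more of them held an LPS-side one. Of the 16 engulfment and actin genes, 7 (43.8%) held an LPS-side region, 5 (31.3%) a shared one and 1 (6.25%) an apoptotic cell-side one, against 18.6%, 13.9% and 1.89% of all 21887 protein-coding genes. These genes are long, with a median of 38257 bp against 17169 bp over all protein-coding genes, and held 10.2 regions of any support per 100 kb against 10.04. Rhoa, the GTPase that opposes engulfment, had a shared region at chr9:108326598-108326846 with scores of 203.73, 150.93 and 228.25 with LPS and 193.04, 194.5 and 165.66 with apoptotic cells. It also held an LPS-side region at chr9:108337496-108337613, with 133.57 and 418.03 in LPS replicates 1 and 3. Elmo1, which activates RAC1 during engulfment, held regions of all 3 kinds. Its apoptotic cell-side region, at chr13:20439969-20440268, scored 91.25 and 77.61 in replicates 1 and 3. Crk, an adaptor upstream of RAC1, had assigned LPS scores of 96.58, 85.67 and 265.27 and 76.17 in apoptotic cell replicate 3. Of these LPS peaks, those of replicates 1 and 3 shared a region and that of replicate 2 lay elsewhere. A shared region inside Crk, at chr11:75688241-75688489, scored 385.63 and 196.81 in LPS replicates 1 and 3 and 255.22, 218.24 and 184.35 with apoptotic cells. Rac1 itself had assigned peaks in 2 replicates of each condition, of which apoptotic cell replicate 2 lay outside the region of the others.

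Lipid handling genes held the other apoptotic cell-side regions among the lists. Msr1, a scavenger receptor, scored 101.19 and 83.7 in apoptotic cell replicates 2 and 3 at chr8:39633559-39633777, and Lipa, lysosomal acid lipase, 70.06 and 100.65 in replicates 1 and 3 at chr19:34503130-34503460. Both regions lay inside the genes and had no LPS or unstimulated peak. By the deposited column, which lists other peaks, Lipa had scores of 63.69 and 79.08 in LPS replicates 2 and 3 and no apoptotic cell replicate. These LPS peaks shared no region inside or within 5000 bp of the gene. More genes of this list held an LPS-side region. They were Abca1, Abcg1, Apoe, Scarb1, Pparg and Ppard, with the peaks in LPS replicates 1 and 3. Apoe, apolipoprotein E of cholesterol efflux, scored 162.8 and 125.36 in these 2 replicates. Pparg and Ppard, lipid-sensing nuclear receptors, each also held a region with all 6 replicates, at chr6:115472633-115472805 and chr17:28267151-28267390.

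In arginine metabolism, besides Asl, Srm (spermidine synthase) scored 136.64 and 137.92 in LPS replicates 1 and 3. Arg1, arginase 1, scored 126.65 and 86.13 in LPS replicates 2 and 3 and 89.97 in apoptotic cell replicate 3, at 3 different positions, and had unassigned single peaks in LPS replicate 1 (136.64) and apoptotic cell replicate 2 (133.78). Slc7a1 (an arginine transporter), Ass1 (argininosuccinate synthase) and Sms (spermine synthase) held regions with at least 2 replicates of each condition. Of the 15 macrophage lineage genes, Mrc1, the mannose receptor, had assigned peaks in LPS replicates 1 and 2 (136.64 and 200.9), and Cebpa, a myeloid transcription factor, in apoptotic cell replicates 2 and 3 (94.43 and 128.62). No region inside or within 5000 bp of Cebpa had both of its apoptotic cell peaks.

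Over all 175 listed genes, the shares were near those of all protein-coding genes. An LPS-side region was held by 33 genes (18.9%, against 18.6%), a shared region by 20 (11.4%, against 13.9%) and an apoptotic cell-side region by 3 (1.71%, against 1.89%). By the deposited column, 86 listed genes (49.1%, against 39.8%) had an assigned peak, of which 9 had at least 2 LPS and no apoptotic cell replicate and 3 the reverse. Over all 10773 genes with an assigned peak these were 881 (8.18%) and 290 (2.69%).

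**Figure D5:**
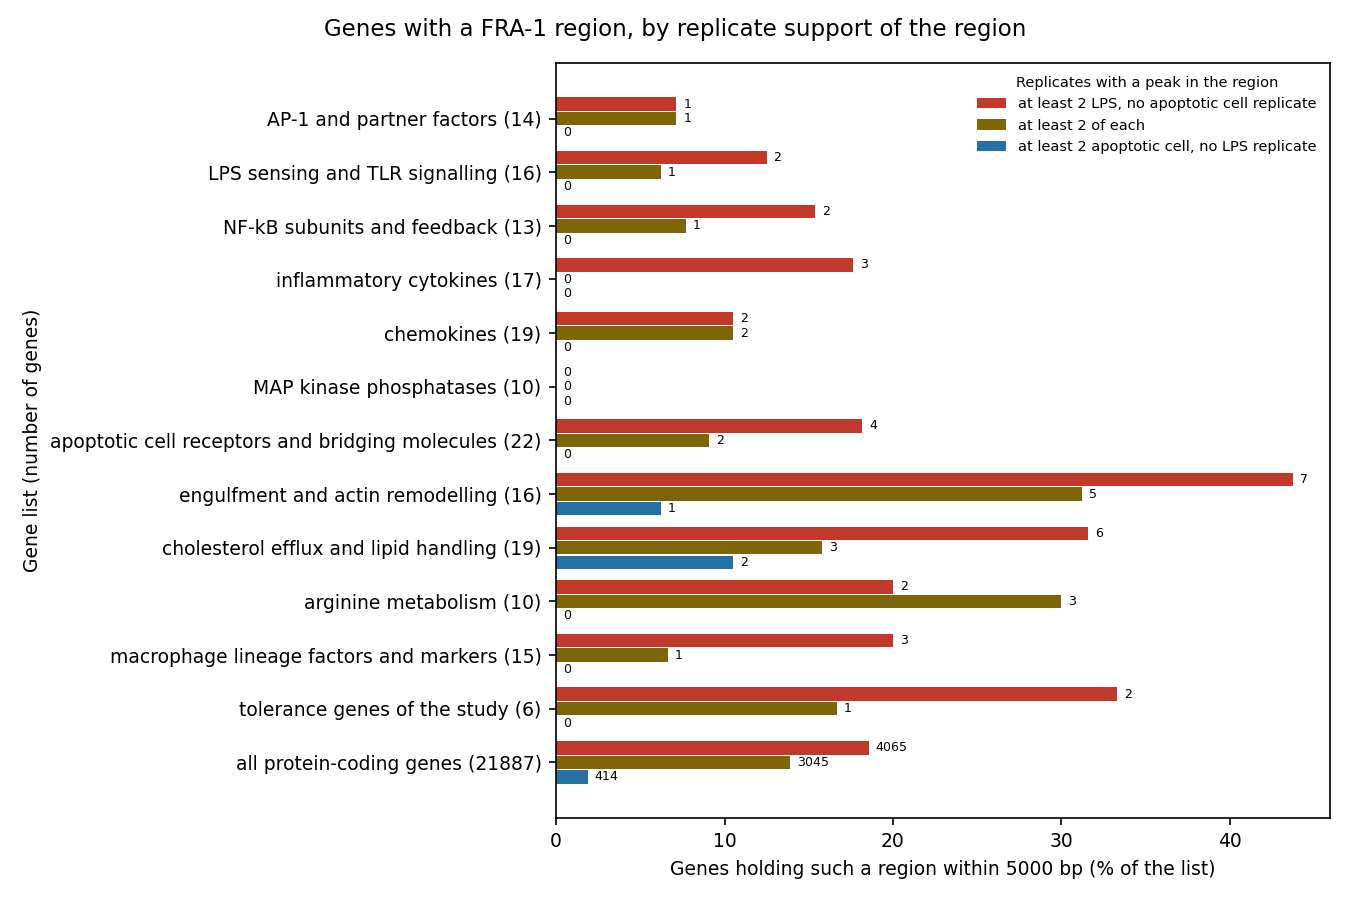
Share of the genes of each list (y axis, number of genes in brackets) that hold, inside the gene or within 5000 bp, at least 1 region with the replicate support given by colour (x axis, percent of the list), with the number of genes beside each bar. Over all 21887 protein-coding genes the shares were 18.6%, 13.9% and 1.89%, and engulfment genes had the highest LPS-side share with 7 of 16.

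MicroRNA genes were chosen for description after their values were seen. Of 475 with an assigned peak, 404 were found in the RefSeq miRNA table, 5 (1.05%) had all LPS and no apoptotic cell replicate, 1 (0.211%) the reverse, and 6 (1.26%) all 6 replicates. Over all genes with an assigned peak these shares were 0.668%, 0.0464% and 1.79%. The mature sequences below are those of the 2 genes with 3 LPS peaks in 1 region and none with apoptotic cells (Mir103-2 and Mir1199), of the shared Mir449a and Mir125b-1, and of Mir7094-1 on the apoptotic cell side, with the seed (bases 2 to 8) in capitals.
mmu-miR-103-3p: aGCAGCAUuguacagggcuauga
mmu-miR-1199-5p: uCUGAGUCccggucgcgcgg
mmu-miR-449a-5p: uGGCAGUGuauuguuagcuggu
mmu-miR-125b-5p: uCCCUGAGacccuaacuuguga
mmu-miR-7094-3p: uACUCUGCuguucucuccaca
No seed was shared among the 5. The miR-103 family is known for effects on insulin sensitivity, miR-449a shares its seed with the miR-34 family, which acts in the p53 response, and miR-125b-5p is known to target Tnf mRNA.

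The Mir1199 region, at chr8:84012348-84012626, scored 178.77, 89.28 and 133.55 with LPS, lay -854 bp from the hairpin start, and had no apoptotic cell or unstimulated peak. Mir103-2 had a peak of each of the 3 LPS replicates at chr2:131285322-131285808, -2487 bp from the hairpin. At other positions it had a peak of LPS replicate 1 (77.5) and one of LPS replicate 2 (180.37). The latter region also overlapped a peak of 1 unstimulated replicate. Mir449a had a region at chr13:113036966-113037145, -479 bp from the hairpin, with scores of 439.46, 408.68 and 447.05 with LPS and 415.63, 475.76 and 410.12 with apoptotic cells. The Mir449a scores of the conditions overlapped. Mir125b-1 had a region at chr9:41580601-41580770 with 178.77 and 245.97 in LPS replicates 1 and 3 and 169.85, 133.78 and 146.98 with apoptotic cells. The 3 Mir7094-1 peaks of the apoptotic cell replicates (89.16, 109.96 and 75.63) lay in separate regions.

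The promoter windows at hand held few regions of any class. The set is incomplete, since genes such as Fosl1, Arg1, Asl, Il23a and Nfkb1 have no window in it. Of 32851 RefSeq promoter windows (250 bases before to 50 after a start), 654 overlapped an LPS peak and 730 an apoptotic cell peak. Windows over regions with at least 2 LPS and no apoptotic cell replicate numbered 49 (0.149%), over regions with at least 2 apoptotic cell and no LPS replicate 4 (0.0122%), and over regions with at least 2 of each 36. The single window over a region with all LPS and no apoptotic cell replicate was that of AA465934, a long non-coding RNA gene, with scores of 173.25, 122.49 and 144.97. The 4 windows on the apoptotic cell side were those of Cd59a (a complement inhibitor), Mybphl, Vmn1r201 and Olfr1337, and the Cd59a region scored 163.8 and 75.04 in apoptotic cell replicates 1 and 2.

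The share of windows with the AP-1 motif did not differ detectably from that of all windows at these numbers. TGANTCA, a palindrome that reads alike on either strand, was present in 7.81% of all windows, in 4 of the 49 on the LPS side (8.16%, 95% Wilson interval 3.22 to 19.2%), in 0 of 4 on the apoptotic cell side, and in 1 of 36 shared windows (2.78%). The 4 windows were those of Gm39853, Gm11523, Oog1 and Mbtps2, and the motif lay inside the region in Gm39853 and Gm11523. The more restricted TGACTCA or TGAGTCA was present in 5.20% of all windows, 2 of the 49 (Gm39853 and Mbtps2) and 1 of the 36, and inside the region in Gm39853 alone. A match is a description of the letters and not a measured site, and no genome sequence was at hand to search the regions outside promoters.

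Runs of a single base were more frequent in LPS-side and shared windows than in all windows. A run of at least 12 A or at least 12 T, searched after the sequences above had been seen, was present in 3.24% of all 32851 windows. On the LPS side 29 of 49 windows held one (59.2%, 95% Wilson interval 45.2 to 71.8%), among shared windows 13 of 36 (36.1%), and on the apoptotic cell side 0 of 4. The share differed between the replicates themselves. Of the windows under a peak of LPS replicates 1, 2 and 3, 27.7%, 8.25% and 60.8% held a run, and under a peak of the apoptotic cell replicates 15.2%, 10.9% and 9.81%. LPS replicate 3 stood apart from the other 5, and the groups overlapped at LPS replicate 2 (means 32.2 ± 26.6 and 11.9 ± 2.85, exact permutation p = 0.4). Under peaks of LPS replicate 3 that no other replicate shared, 56.4% of 195 windows held a run, against 1.47 to 4.73% for the other 5. With windows that hold a run left out, 20 remained on the LPS side, 23 shared and 4 on the apoptotic cell side. The part of such runs in the regions outside promoters was not tested.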

How the data were processed

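FRA-1 ChIP-seq was analysed in 3 LPS and 3 apoptotic cell samples, with 3 unstimulated samples for reference. The authors deposited 1 table per condition that lists genomic segments with a score for each of the 3 replicates (-1 for no peak), the number of replicates, the sum of the scores, and a gene symbol. The scale of the score is not given in the sources used here, nor is the peak caller of these tables or the use of the 3 input samples. The submitters' processing notes name BWA 0.7.14, bedtools, mm10 and GRCm38 without role or order. Libraries were single-read, and no read counts were at hand, so that depth is unknown.

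Duplicate segments were removed, neighbouring segments of equal score were put together as 1 peak, and touching or overlapping peaks became 1 region, scored by the highest peak (Python 3.11.15, pandas 2.3.3, scipy 1.17.1). Replicate values were compared by exact permutation tests. Log2 scores of regions with all 6 replicates, centred on each replicate's median, were tested with limma 3.58.1 (R 4.3.3) with Benjamini-Hochberg adjustment. The limma step was tested on simulated data, where it made 8 false calls at 2-fold. Genes came from the deposited gene column (94.9% of 10773 symbols matched RefSeq, GRCm38.p6) or from RefSeq gene bodies with 5000 bp on each side. Named genes were, per list, up to 4 with peaks in 2 or more replicates of 1 condition, ranked by the difference in replicate number and then the highest score; the 10 genes at the highest-ranking regions with 3 against 0 replicates, ranked by the lowest percentile among the 3 replicates; the 5 highest regions with all 6 replicates; the 5 regions per direction with the smallest p; and Il6, Lcn2, Il12b, Mmp13, Saa3, Arg1 and Fosl1. Other genes were named after their values were seen. The members and lists were chosen with earlier results of these data known. Alternatives varied the score minimum (100), the number of peaks, the merging distance (100 bp), the replicates, the scaling and the gene assignment. For 1 gene that this rule selects, values are not reported here.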

Additional observations from a re-analysis of the deposited data

How the results depend on the processing

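The 0 regions called by limma stayed 0 under all 11 alternatives, with smallest adjusted p-values from 0.0894 to 0.999. At an unadjusted limma p under 0.05 there were 78 to 441 regions. The 441 were 10.6% of the 4165 regions tested without LPS replicate 2, and 160 of them were higher with LPS. In the other alternatives the share ran from 2.11 to 5.75%. Counts of regions depended on the score minimum and on single replicates, and the cause was not tested. With scores of at least 100, 201 regions had all LPS and no apoptotic cell replicate and 1 the reverse (genes in the deposited column 52 and 1), apoptotic cell-only regions fell to 72117, and promoters to 418 (LPS), 456 (apoptotic cells) and 1 (at least 2 apoptotic cell, no LPS replicate). Above each replicate's median, the values were 62 and 1 regions, 15 and 0 genes, and 42221, 52515 and 8488 regions with LPS only, apoptotic cells only and both. With the 31501 top peaks of each replicate they were 214 and 4 regions, 40 and 3 genes, 61823 and 71564 regions with LPS only and apoptotic cells only, and 195 in place of 414 RefSeq genes with an apoptotic cell-side region. Joining peaks within 100 bp gave 9 in place of 5 apoptotic cell regions. RefSeq gene bodies gave 205 and 116 genes. Without promoters that hold a run of 12 A or T, an alternative added after the data were seen, 20 LPS-side and 23 shared windows were left. Within the narrow class (2 LPS replicates, 1 apoptotic cell replicate) 13871 and 70383 regions had all replicates of 1 condition and none of the other, and within the wide class (1 and 2) 35330 and 2488, so that the classes with unequal numbers of replicates do not compare.

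Leaving out 1 replicate at a time gave 454 to 9477 LPS and 6 to 386 apoptotic cell regions with full one-sided support, 90 to 672 and 6 to 143 genes, 67827 to 109497 LPS-only, 53784 to 125979 apoptotic cell-only and 12717 to 15643 shared regions. The shares of repeated regions found in the other condition ran from 42.9 to 95.9% and from 21.8 to 77.7%, the limits being set by leaving out LPS replicate 3 or apoptotic cell replicates 3 and 1. Promoter windows ran from 426 to 651 (LPS), 386 to 729 (apoptotic cells), 1 to 60 (LPS side), 1 to 8 (apoptotic cell side) and 15 to 36 (shared). The difference in mean peak number, -1017, turned to 7021 with scores of at least 100 and to 3567 within the wide class. Within the narrow class it was -24965.5, the furthest from the reported value. It ran from -10566 to 13421 without single replicates, with the sign turned without LPS replicate 1 (770.3) or 2 (3910) or apoptotic cell replicate 3. The within minus between difference of shared parts ran from -0.97 to 3.14, turning without LPS replicate 1 (-0.75) or 3 (-0.97). Of 173 recomputed values, 105 kept the reported direction and lay near the reported value (counts within 1.5 times), 61 moved further and 7 changed sign.

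No paired analysis was possible because the columns of scores do not say which mouse each came from. The search for the AP-1 motif over whole regions was not run, since no genome sequence was at hand. Depth is unknown, and a single score value held 8.26 to 14.4% of the peaks of each of these 6 replicates, so that ranks by score are coarse.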

Other observations

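The deposited gene column also listed genes with a peak in all 6 replicates that lie outside the lists and were named after their values were seen. Irf3, a transcription factor of the interferon response, scored 178.77, 107.08 and 135.1 with LPS and 162.66, 175.18 and 94.15 with apoptotic cells. Gbp5, an interferon-induced GTPase, scored 310.98, 122.06 and 324.01 against 193.04, 199.42 and 114.94. Il13, a type 2 cytokine gene, scored 269.81, 181.33 and 311.44 against 161.5, 269.11 and 247.37 and had a peak in all 3 unstimulated replicates. Prkaa1, the catalytic alpha 1 subunit of AMPK, scored 378.46, 79.96 and 408.09 against 193.04, 199.42 and 148.37. The values of the conditions overlapped at all 4 genes, and LPS replicate 2 had the lowest LPS score at each.

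Unstimulated replicate 3, of the narrow width class like LPS replicates 1 and 3, had a run of at least 12 A or T in 24.6% of the promoter windows under its peaks, against 10.0% and 9.09% in unstimulated replicates 1 and 2 and 3.24% of all windows. Apoptotic cell replicate 3, of the same width class, stood at 9.81%.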
